A study of Homo sapiens with 9 samples.

Results

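The adrenomedullin and endothelin systems were followed through 10 genes in A498 cells, an established human clear cell renal cell carcinoma line with mutant VHL. The genes were the peptides ADM, ADM2, EDN1 and EDN2, the receptors CALCRL, EDNRA and EDNRB, the receptor partners RAMP1 and RAMP2, and the processing enzyme ECE1. They were taken by gene name from a count table of 27671 genes, all 10 were found there, and 6 of them were among the 15551 genes with enough reads to test. The family was chosen by the readout itself, because ADM had been seen to move in opposite directions after depletion of ARNT and of BMAL1. For ADM the values are therefore a description without a test. The other 9 genes entered the list by family, but with earlier results of these data known.

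Gene expression was measured by RNA sequencing in 9 libraries, with 3 biological replicates in each of 3 groups. All cells carried a lentiviral short hairpin RNA and had been selected with puromycin, and the hairpin was a control (shControl), one against BMAL1 (shBMAL1) or one against ARNT (shARNT). Each depletion rested on 1 hairpin in 1 cell line, and no time points or doses were compared. The study asked how BMAL1, which pairs with CLOCK in the circadian clock, and ARNT, the partner of the hypoxia-inducible factors (HIFs), share the control of HIF2α target genes.

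Adrenomedullin and intermedin (the product of ADM2) are vasodilator peptides that act through the receptor CALCRL, which reaches the cell surface and gains its ligand preference only with a RAMP protein. Endothelins are vasoconstrictor peptides that are cut from inactive precursors by endothelin-converting enzymes and act on the receptors EDNRA and EDNRB. ADM and EDN1 are textbook targets of hypoxia signalling, and in the kidney both systems are best known from the endothelium, the mesangium and the tubules.

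The promoters of ADM, EDN1 and EDN2 are shown because the first responded differently to the depletions and the other two, which encode related peptides, moved in opposite directions after ARNT depletion. Each sequence is the 250 bases before a RefSeq start site, written 5′ to 3′ on the strand of the gene, and capitals mark the HIF core letters ACGTG or GCGTG on either strand. The ADM window lay at chr11:10326370-10326619 (GRCh37, plus strand), the EDN1 window at chr6:12290344-12290593 (plus strand) and the EDN2 window at chr1:41950355-41950604 (minus strand).
ADM: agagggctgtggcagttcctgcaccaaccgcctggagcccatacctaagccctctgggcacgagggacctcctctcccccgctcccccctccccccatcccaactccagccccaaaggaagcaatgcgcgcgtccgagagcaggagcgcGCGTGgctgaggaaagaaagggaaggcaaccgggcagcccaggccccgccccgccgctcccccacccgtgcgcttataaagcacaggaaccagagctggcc
EDN1: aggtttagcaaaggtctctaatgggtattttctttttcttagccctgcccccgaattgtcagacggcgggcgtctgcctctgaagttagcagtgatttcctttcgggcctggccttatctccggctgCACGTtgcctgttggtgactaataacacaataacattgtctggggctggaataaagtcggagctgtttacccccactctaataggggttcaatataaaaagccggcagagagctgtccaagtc
EDN2: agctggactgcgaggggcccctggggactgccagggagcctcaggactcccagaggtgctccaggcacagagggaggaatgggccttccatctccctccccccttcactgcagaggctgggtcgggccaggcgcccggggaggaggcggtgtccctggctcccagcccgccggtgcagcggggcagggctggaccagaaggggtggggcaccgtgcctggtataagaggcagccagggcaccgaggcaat
The ADM window held 1 GCGTG, 97 to 101 bases before the start. The EDN1 window held 1 ACGTG on the opposite strand, 119 to 123 bases before the start. The EDN2 window held neither.

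Such matches are common. Of 35116 RefSeq promoter windows of this length, 18.5% held ACGTG, 32.2% held GCGTG and 43.2% held at least one of them. The E-box CACGTG, the letters bound by CLOCK and BMAL1, contains ACGTG on both strands and occurred in 6.34% of windows. It occurred in none of the 14 windows found for 8 of the 10 genes. EDN1 has further RefSeq starts upstream. The window before the most distant of them held 2 ACGTG and 1 GCGTG, and the window before the other held neither. ECE1 had 4 starts, of which 1 had 2 GCGTG and another had 1. ADM2 had 1 GCGTG and CALCRL had no match. Windows of the endothelin receptors also held matches, with 1 GCGTG for EDNRA. For EDNRB, 1 window held 2 ACGTG and 3 GCGTG and the other held 1 of each, and EDNRB had 0 counts in every library. These are letters in a window, and binding was not measured here.

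The targeted genes were lower in their own libraries. ARNT fell from 50.5 CPM (read counts normalized to the scaled library size) in shControl to 9.46 CPM in shARNT, 18.8% of the control mean. BMAL1, listed under its older symbol ARNTL, fell from 16.3 to 5.02 CPM in shBMAL1, 30.9% of control. Each depletion also moved the other gene, since shBMAL1 cells held 63.9% of the control level of ARNT and shARNT cells held 146% of the control level of BMAL1. EPAS1, which encodes HIF2α, was at 67.5% of control in shBMAL1 and 21.5% in shARNT, and its part in the results was not tested.

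Library totals lay between 35269857 and 36099083 counts, and a gene without reads could have had up to 3 counts per library, which is 0.0831 to 0.0851 CPM on the unscaled totals. Of 10 markers of renal epithelium and clear cell carcinoma, all but EPCAM had a mean of at least 1 CPM over the 9 libraries. Their summed level was 8004 to 8062 CPM in the controls, 5939 to 6429 CPM after BMAL1 depletion and 2104 to 2261 CPM after ARNT depletion. Most of this sum was VIM, with means of 5974, 4309 and 812 CPM, while PAX8 was at 279% and KRT18 at 99.5% of control in shARNT and CDH16 at 293% in shBMAL1. Of 8 endothelial markers only TEK had such a mean, and their sum was 3.3 to 4.07, 3.1 to 4.35 and 1.09 to 1.62 CPM in the same order. PECAM1, CDH5 and VWF all had group means below 1 CPM. Of 5 leukocyte markers only CD68 had a mean of at least 1 CPM, with CD3E at 0, and their sum was 1786 to 1905, 1754 to 1865 and 136 to 149 CPM. The 5 mural markers, mostly ACTA2, summed to 71.2 to 73.7, 62.7 to 65.4 and 24.1 to 26.4 CPM. Among them PDGFRB had means of 2.20, 0.439 and 0.168 CPM. The part of these marker changes in the results was not tested.

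ADM (chr11:10326620-10328944, plus strand) encodes the adrenomedullin precursor. It stood at 131, 132 and 138 CPM in the shControl libraries, at 166, 175 and 184 CPM in shBMAL1 and at 63.9, 75.1 and 88.0 CPM in shARNT. Every shBMAL1 library lay above every control library and every shARNT library lay below them, so no groups overlapped. The means were 133 ± 3.77, 175 ± 8.64 and 75.7 ± 12.1 CPM (SD, n = 3 each), which put shBMAL1 at 131% and shARNT at 56.7% of control. The log2 fold change (log2FC) was 0.39 (SE 0.0729) in shBMAL1 and -0.82 (SE 0.0746) in shARNT, and the direct difference of shARNT from shBMAL1 was -1.21 (SE 0.0744). In these bulk samples a smaller share of expressing cells and less RNA per cell cannot be told apart. The shARNT libraries were the most spread, and the highest of them, at 88.0 CPM, was still below the lowest control library at 131 CPM.

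**Figure D1:**
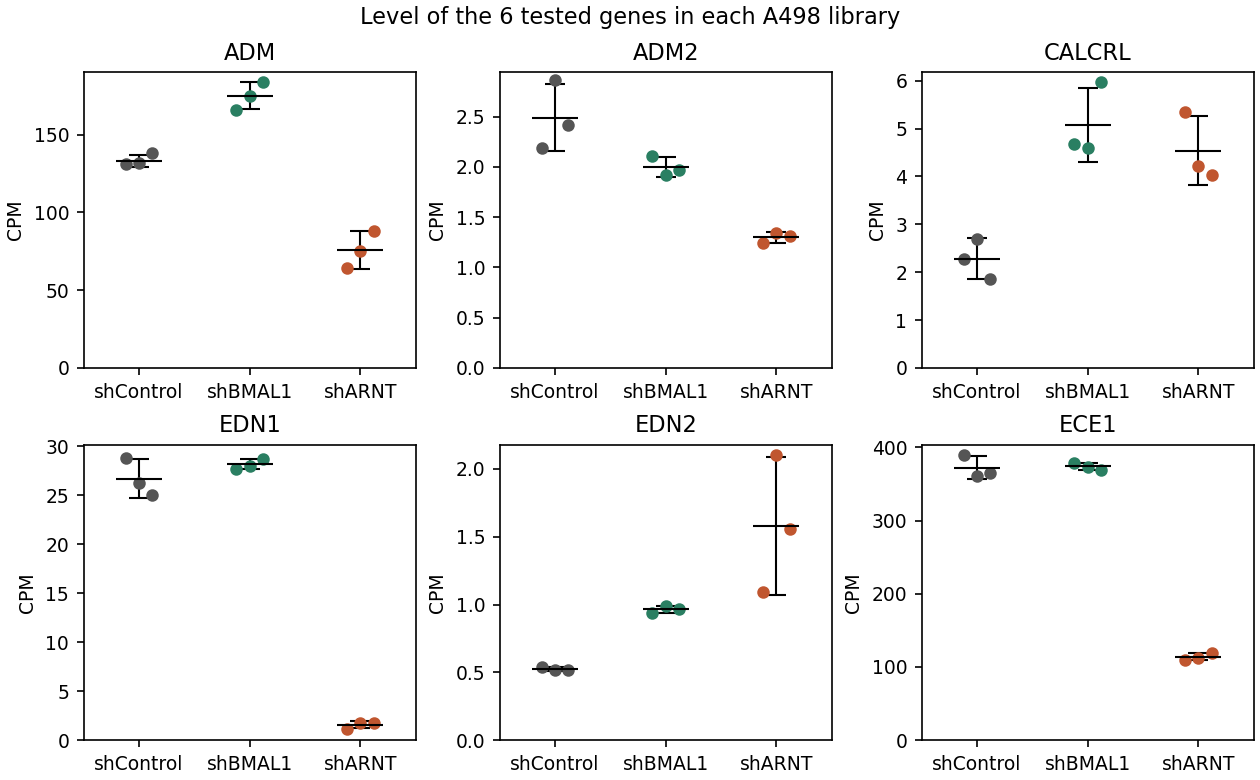
Level of the 6 tested genes in each library, in CPM on linear axes from 0, by group. Coloured points are libraries and black bars are the mean and SD of 3. ADM lies at 166 to 184 CPM in shBMAL1 and 63.9 to 88.0 CPM in shARNT around 131 to 138 CPM in shControl, while EDN1 and ECE1 are low in shARNT and CALCRL and EDN2 lie lowest in shControl.

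ADM2 (chr22:50919972-50924869, plus strand), the intermedin gene, was weakly expressed. Its control libraries held 2.19, 2.86 and 2.42 CPM, the shBMAL1 libraries 2.11, 1.92 and 1.97 CPM and the shARNT libraries 1.24, 1.34 and 1.31 CPM. The 3 groups did not overlap, with shControl highest and shARNT lowest. In shARNT the log2FC was -0.94 (SE 0.193) with an adjusted p of 1.81e-04 (quasi-likelihood test of edgeR, Benjamini-Hochberg over all genes tested), so ADM2 fell to 52.0% of control. In shBMAL1 it was -0.32 (SE 0.187), which was not called (adjusted p = 0.157, 95% interval -0.71 to 0.07). The 2 depletions differed by -0.62 (SE 0.197, adjusted p = 0.00728). Exons of ADM2 overlap SBF1 on the opposite strand, and whether strand was used in counting was not stated, so reads may have been shared. SBF1, chosen after its values were seen, had 210 ± 4.62 CPM in shControl, 157 ± 10.9 in shBMAL1 and 391 ± 12.1 in shARNT, and it was called higher in shARNT (0.89, adjusted p = 2.42e-13), where ADM2 was lower.

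CALCRL (chr2:188206691-188313187, minus strand), the receptor for both peptides, rose in both depletions from a low level. The shControl libraries held 2.28, 2.70 and 1.85 CPM, the shBMAL1 libraries 4.68, 4.59 and 5.97 CPM and the shARNT libraries 5.35, 4.22 and 4.03 CPM. All 6 depleted libraries lay above all 3 control libraries, and the depleted groups overlapped each other. The log2FC was 1.16 (SE 0.175, adjusted p = 1.13e-05) in shBMAL1 and 0.99 (SE 0.175, adjusted p = 3.33e-05) in shARNT. Their direct difference was -0.16 (SE 0.16, adjusted p = 0.358, 95% interval -0.50 to 0.17), and it was 0.03 when libraries were scaled by size alone.

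The RAMP partners were at or near 0. RAMP1 (chr2:238767536-238820748) had 1 count, in 1 shBMAL1 library, and none elsewhere. RAMP2 (chr17:40910465-40915059), the partner that makes CALCRL an adrenomedullin receptor, had 0 counts in all 9 libraries, and so had RAMP3, the other adrenomedullin partner. RAMP2-AS1, which overlaps RAMP2 exons on the opposite strand and was looked up after the values were seen, had 22 counts over the shControl libraries, 6 over shBMAL1 and 25 over shARNT. Neither RAMP1 nor RAMP2 could be compared between groups at this depth.

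EDN1 (chr6:12290594-12297427, plus strand), which encodes endothelin-1, had the steepest fall of the 6 tested genes in shARNT. It stood at 28.8, 26.3 and 25.0 CPM in shControl, at 27.7, 28.0 and 28.7 CPM in shBMAL1 and at 1.19, 1.79 and 1.74 CPM in shARNT. Control and shBMAL1 libraries overlapped, and the shARNT libraries lay far below both. The mean of 26.7 ± 1.98 CPM fell to 1.58 ± 0.333 CPM, 5.91% of control. The log2FC in shARNT was -4.08 (SE 0.113, adjusted p = 1.33e-17), a 16.9-fold lower level. In shBMAL1 it was 0.08 (SE 0.0809, adjusted p = 0.438, 95% interval -0.09 to 0.25). Against shBMAL1, shARNT was lower by a log2FC of -4.16 (SE 0.112, adjusted p = 9.34e-18).

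The EDN1 values were fractions of reads in all libraries but shARNT replicate 2, because reads had been divided between EDN1 and another entry of the table, LOC101928281, whose fractions add up with those of EDN1 to whole reads in every library. The sums were 1705, 1594 and 1613 reads in shControl, 1764, 1749 and 1790 in shBMAL1 and 93, 109 and 142 in shARNT. The level of EDN1 is thus uncertain by about the size of the other entry, which had 22.8 ± 0.928 CPM in shControl, and the fold change was close to that of the pooled reads. With both entries pooled, a choice made after seeing the data, the log2FC was -4.09 for shARNT (adjusted p = 4.97e-19) and 0.06 for shBMAL1 (adjusted p = 0.455).

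EDN2 (chr1:41944446-41950354, minus strand), which encodes endothelin-2, went the other way from a very low level. It had 18, 17 and 17 counts in shControl, 32, 34 and 33 in shBMAL1 and 43, 83 and 62 in shARNT. The 3 groups did not overlap in CPM, and the highest shControl library (0.541 CPM) and the highest shBMAL1 library (0.987 CPM) each lay below the lowest library of the next group (0.936 CPM in shBMAL1, 1.09 CPM in shARNT). The log2FC was 1.59 (SE 0.292, adjusted p = 5.52e-05) in shARNT and 0.88 (SE 0.312, adjusted p = 0.0215) in shBMAL1. The depletions differed by 0.71 (SE 0.266, adjusted p = 0.0204), but without shARNT replicate 2, the library with 83 counts, the difference was 0.46 and no longer called (adjusted p = 0.167). The ratio of EDN1 to EDN2 counts was 50.9 ± 2.42 in shControl, 29.2 ± 0.736 in shBMAL1 and 1.02 ± 0.146 in shARNT (SD, n = 3), without regard to transcript length. With the reads of LOC101928281 added to EDN1 the ratio was 94.5 ± 0.604, 53.6 ± 1.92 and 1.92 ± 0.531.

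ECE1 (chr1:21543740-21672065, minus strand), which cuts the endothelin precursor into the active peptide, fell with EDN1. The shControl libraries held 390, 361 and 365 CPM, the shBMAL1 libraries 379, 373 and 369 CPM and the shARNT libraries 110, 112 and 119 CPM. The shARNT values formed a tight group at 30.6% of control, and control and shBMAL1 overlapped. The log2FC was -1.71 (SE 0.0421, adjusted p = 2.12e-18) in shARNT and -1.72 (SE 0.0421, adjusted p = 1.98e-18) against shBMAL1. In shBMAL1 it was 0.01 against control (SE 0.0404, adjusted p = 0.895, 95% interval -0.08 to 0.09), an interval that limits any change to between 0.948-fold and 1.07-fold.

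The endothelin receptors were at or near 0. EDNRB (chr13:78469616-78549664) had 0 counts in all 9 libraries. EDNRA (chr4:148402069-148466106) had 0 counts in every shControl and shARNT library and 2, 4 and 4 counts in shBMAL1. These few reads lie close to the limit of 3 counts per library, so no fold change is given. Without a filter on low counts the same test called EDNRA higher in shBMAL1 than in control (adjusted p = 0.0385). That call rests on these few reads alone.

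Apart from ADM, 5 genes were tested. In shARNT 2 of them were called higher (CALCRL and EDN2) and 3 lower (ADM2, EDN1 and ECE1), where 40.5% of all tested genes passed upward and 41.3% downward. In shBMAL1, 2 were higher (CALCRL and EDN2) and 0 lower, against 31.9% and 31.5% of all tested genes, and the count of 0 in edgeR was also 0 at an unadjusted p under 0.05 and with DESeq2. Between shARNT and shBMAL1, 1 gene was called higher (EDN2) and 3 lower (ADM2, EDN1 and ECE1), against 40.1% and 41.1%. The comparisons with control share the same 3 control libraries.

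Apart from the count ratios, levels were compared between genes per kilobase of transcript. In shControl the order was ADM at 89.4 ± 2.53 CPM per kb, ECE1 at 73.4 ± 3.11, EDN1 at 13.1 ± 0.972, ADM2 at 0.591 ± 0.0799, EDN2 at 0.418 ± 0.0116 and CALCRL at 0.373 ± 0.0701. ADM stood higher than 94.4% of tested genes with a known length and CALCRL higher than 11.5% of them. EDN2 and CALCRL differed by less than their spread. In shARNT the order was ADM at 50.7 ± 8.09, ECE1 at 22.4 ± 0.991, EDN2 at 1.26 ± 0.404, EDN1 at 0.775 ± 0.164, CALCRL at 0.742 ± 0.117 and ADM2 at 0.308 ± 0.0125 CPM per kb. The place of EDN1 rests on how its reads were divided. With the reads of LOC101928281 added and the length of EDN1, it had 24.3 ± 0.742 CPM per kb in shControl, 25.4 ± 0.458 in shBMAL1 and 1.42 ± 0.308 in shARNT. In shARNT it then lay within the spread of EDN2 and above CALCRL, whereas by its own share of reads it lay within the spread of CALCRL. By that share its mean was below that of EDN2, and the SD ranges of EDN1 and EDN2 overlapped. In shBMAL1 the order was ADM at 117 ± 5.79, ECE1 at 73.7 ± 0.908, EDN1 at 13.8 ± 0.255, CALCRL at 0.831 ± 0.126, EDN2 at 0.770 ± 0.0208 and ADM2 at 0.474 ± 0.0232 CPM per kb, with CALCRL and EDN2 within their spread. In each group the ligand ADM and the enzyme ECE1 were the highest of the 6, and the receptors lay far below them or were not detected.

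**Figure D2:**
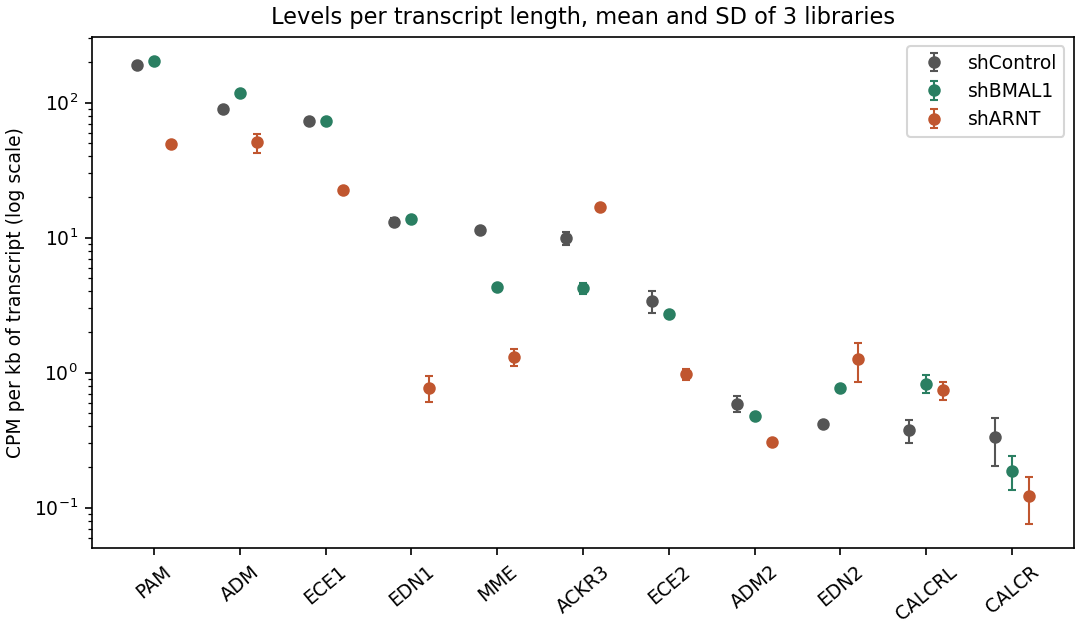
Level per kilobase of transcript on a log axis for the tested genes and their partners, as mean and SD of 3 libraries per group. ADM and ECE1 stand at 89.4 and 73.4 CPM per kb in shControl and CALCRL at 0.373, and EDN1, by its own share of the divided reads, is at 0.775 in shARNT.

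The close partners of the 2 systems were named whatever their values. PAM, the enzyme that amidates adrenomedullin and other peptides, had 758 ± 7.07 CPM in shControl, 813 ± 12.4 in shBMAL1 and 198 ± 4.99 in shARNT. Its log2FC was -1.93 in shARNT (adjusted p = 1.89e-20). The rise in shBMAL1 was called but small (0.10, adjusted p = 0.0138). ACKR3, an atypical receptor that scavenges chemokines and adrenomedullin, was lower in shBMAL1 and higher in shARNT. It had 20.0 ± 2.24 CPM in shControl, 8.54 ± 0.816 in shBMAL1 and 34.2 ± 1.71 in shARNT. The log2FC was -1.22 in shBMAL1 (adjusted p = 7.14e-10), 0.78 in shARNT (adjusted p = 3.33e-08) and 2.00 between shARNT and shBMAL1 (adjusted p = 3.4e-14). The ratio of ADM to ACKR3 counts was accordingly 6.73 ± 0.627 in shControl, 20.6 ± 1.69 in shBMAL1 and 2.21 ± 0.264 in shARNT, without regard to transcript length. It contains ADM, which was chosen for its change, and was not tested.

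MME encodes neprilysin, a surface protease that degrades both peptides. Its control level of 63.8 ± 2.42 CPM compared with 7.41 ± 1.05 CPM in shARNT (log2FC -3.11, adjusted p = 2.97e-18). In shBMAL1 it held 24.5 ± 0.519 CPM (log2FC -1.38, adjusted p = 1.49e-12). ECE2, a second converting enzyme, had 10.9 ± 2.08, 8.69 ± 0.304 and 3.14 ± 0.298 CPM in the same order of groups. Its fall in shARNT was -1.80 (adjusted p = 1.47e-10), and that of -0.33 in shBMAL1 (adjusted p = 0.0257) was not called without shControl replicate 1 (-0.17, adjusted p = 0.244). CALCR, the calcitonin receptor, which binds amylin or calcitonin according to its RAMP, was near 1 CPM with 1.19 ± 0.455, 0.672 ± 0.189 and 0.437 ± 0.167 CPM. It was called lower in shARNT (-1.43, adjusted p = 0.00165). The call in shBMAL1 (-0.82, adjusted p = 0.0579) was lost without shControl replicate 1 (-0.48, adjusted p = 0.323) or shBMAL1 replicate 1 (-0.61, adjusted p = 0.2). EDN3, the remaining endothelin, had 0 counts in all 9 libraries.

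**Figure D3:**
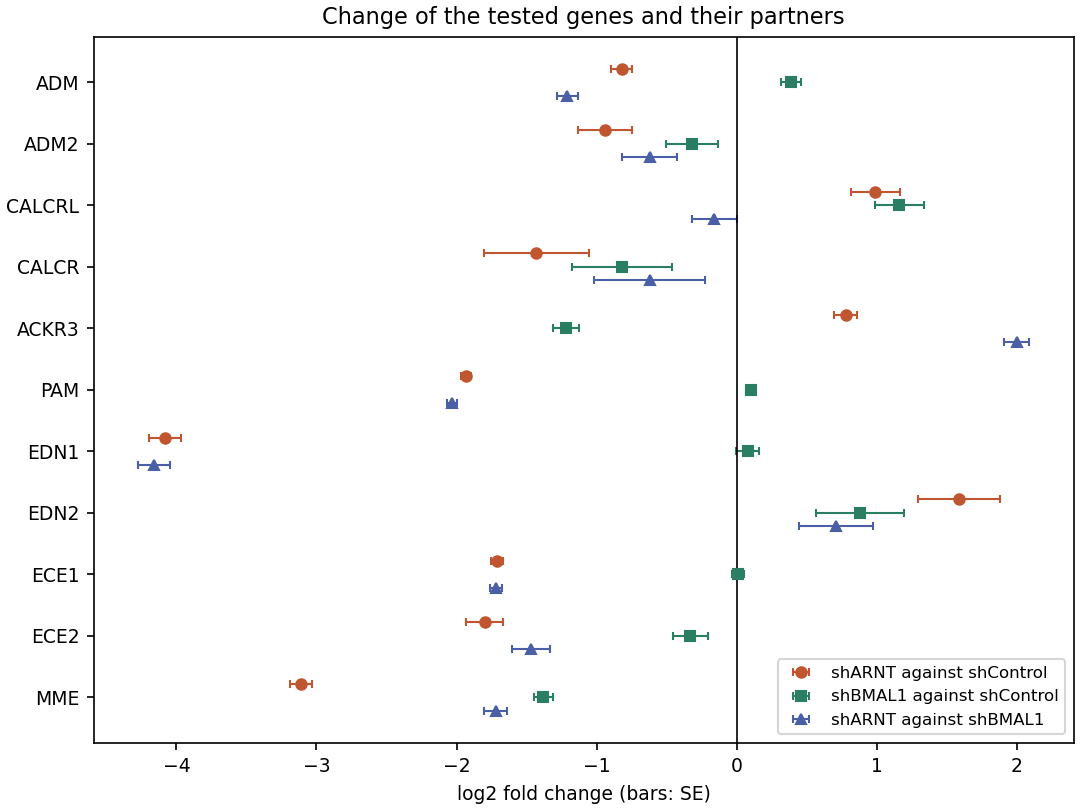
Log2 fold change (log2FC) with its SE for the 6 tested genes and 5 of their partners in the 3 comparisons, where 0 means no change. Circles are shARNT against shControl, squares shBMAL1 against shControl and triangles shARNT against shBMAL1. ADM, PAM, ACKR3, EDN1 and ECE1 have circles and squares on opposite sides of 0. The values are -0.82 and 0.39 for ADM, -1.93 and 0.10 for PAM and 0.78 and -1.22 for ACKR3. Circles of EDN1 and ECE1 lie at -4.08 and -1.71, with squares at 0.08 and 0.01 that were not called.

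The wider pathways were described by lists of other genes. Of 24 further genes of the adrenomedullin and CGRP axis 15 were tested, and in shARNT 2 were higher, 10 lower and 3 not called, with a median log2FC of -0.54 against -0.01 over all tested genes, of which 40.5% were higher and 41.3% lower. Among list genes with a mean of at least 1 CPM, which leaves out CALCR, the largest changes were in MME, PAM and ADCY7, an adenylyl cyclase (-1.04, adjusted p = 7.52e-13). In shBMAL1, 3 were higher, 8 lower and 4 not called (median -0.13 against 0.00, with 31.9% of all tested genes higher and 31.5% lower), and by the same minimum the 3 with the largest changes were MME, ACKR3 and the adenylyl cyclase ADCY6 (-1.37, adjusted p = 9.82e-15). Between shARNT and shBMAL1, 5 were higher and 9 lower with a median of -0.62, where 40.1% and 41.1% of all tested genes were called, led by PAM (-2.03), ACKR3 and MME (-1.72).

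Of 19 further genes of the endothelin axis 16 were tested. In shARNT 4 were higher, 10 lower and 2 not called (median -0.57), beside 40.5% and 41.3% of all tested genes, and besides MME the largest changes were in ITPR1, a calcium release channel downstream of endothelin receptors (-2.92, adjusted p = 3.58e-19), and PRKCA, a protein kinase C (-2.23, adjusted p = 9.15e-19). In shBMAL1 4 were higher, 7 lower and 5 not called (median -0.04), beside 31.9% and 31.5%, and after MME came the phospholipase PLCB3 (-0.88, adjusted p = 4.61e-12) and the protease FURIN, which makes the first cut in the endothelin precursor (-0.85, adjusted p = 2.41e-11). Between shARNT and shBMAL1, 5 were higher and 9 lower (median -0.17), beside 40.1% and 41.1%, and ITPR1 (-2.98), PRKCA (-2.33) and MME changed most.

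Of 19 genes of other vasoactive systems 11 were tested, and they are set against the same shares of all tested genes. In shARNT 0 were higher and 7 lower (median -1.60; 40.5% and 41.3% of all tested genes), in shBMAL1 6 were higher and 3 lower (median 0.30; 31.9% and 31.5%), with 4 higher by DESeq2, and between shARNT and shBMAL1 0 were higher and 10 lower (median -1.77; 40.1% and 41.1%). Both counts of 0 in edgeR were also 0 at an unadjusted p under 0.05 and with DESeq2, but without a filter on low counts 2 genes were higher in each of these comparisons. AGTR1, the angiotensin II receptor, had 4.13 CPM in shControl, 18.1 in shBMAL1 and 0.37 in shARNT, a log2FC of 2.13 after depletion of BMAL1 (adjusted p = 3.06e-11) and of -3.47 after that of ARNT (adjusted p = 5.89e-12). BDKRB1, the inducible bradykinin receptor, had 1.15, 6.67 and 0.261 CPM, with changes of 2.53 and then -2.12 (adjusted p = 7.56e-10 and 1.3e-06). The direct difference of shARNT from shBMAL1 was -5.60 for AGTR1 (adjusted p = 2.27e-16) and -4.66 for BDKRB1 (adjusted p = 2.71e-13). BDKRB2, the constitutive bradykinin receptor, rose in shBMAL1 (1.98, adjusted p = 5.06e-12), from 4.90 to 19.3 CPM. APLN, the vasodilator peptide apelin, fell in shARNT from 2.48 to 0.0673 CPM, with 1.21 CPM in shBMAL1, and its counts in shARNT were 5, 1 and 2 (log2FC -5.13, adjusted p = 1.35e-10).

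Likeness of pattern was measured as the root mean square difference of log2 CPM over the 9 libraries, each profile centred on its shControl mean, among 13354 genes with a mean of at least 1 CPM. The genes nearest to ADM were COL4A1 (0.0831), GSKIP (0.0861), B4GALT1 (0.0869), PAPSS2 (0.0934) and PAK1 (0.102). COL4A1, a basement membrane collagen, had 389 ± 5.68 CPM in shControl, 526 ± 8.35 in shBMAL1 and 225 ± 17.1 in shARNT. B4GALT1, a galactosyltransferase, had 119 ± 3.38, 164 ± 5.31 and 66.4 ± 4.45 CPM.

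**Figure D4:**
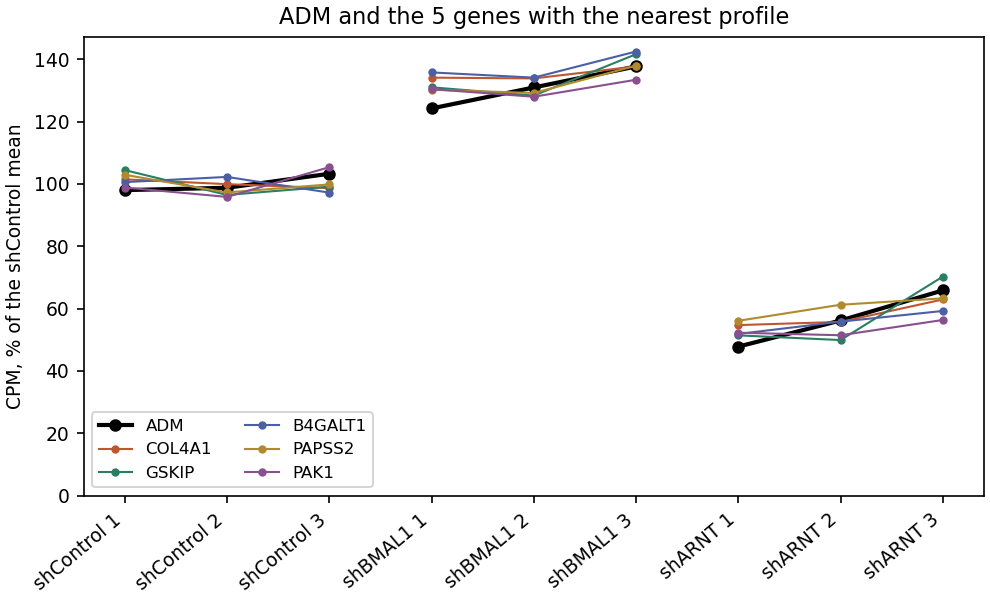
CPM of ADM (black) and of the 5 genes with the nearest profile in each library, as percent of the gene's own shControl mean, with lines joining libraries of a group. All lie near 100% in shControl, above it in shBMAL1 (131% of control on average for ADM) and below it in shARNT (56.7% for ADM).

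For ECE1 the nearest profiles were those of PLXND1, a semaphorin receptor (0.0463), LAMB3, a laminin chain (0.0646), and OGFOD3 (0.0723). PLXND1 had 1146 ± 20.6 CPM in shControl, 1145 ± 17.6 in shBMAL1 and 352 ± 11.3 in shARNT. For EDN1 they were LOC100506990 (0.159), ITIH5 (0.192) and LINC00087 (0.197), and ITIH5 had 874 ± 35.9, 954 ± 48.1 and 53.4 ± 3.39 CPM. The profiles nearest to ADM2 were PPFIA3 (0.0889), RAD51D (0.0895) and HOXD-AS2 (0.0908). CALCRL was nearest to TWISTNB (0.175), TRIM22 (0.185) and SOD2 (0.191), and SOD2, the mitochondrial superoxide dismutase, had 92.5 ± 3.32, 200 ± 11.8 and 195 ± 7.28 CPM. EDN2 was nearest to VIPAS39 (0.185), TMEM33 (0.188) and ID2 (0.194).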

How the data were processed

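The authors deposited expected counts, that is, linear read totals of each gene without normalization. Per the study's methods, paired-end reads were aligned to GRCh37 with SeqMan NGen, and counts were exported with ArrayStar, and the labels name stranded mRNA libraries. The submitters' processing notes name STAR, DESeq2 and hg38 instead. The annotation, the use of strand and the treatment of reads with several alignments were not given in the sources used here, and fractional values show that some reads were divided between genes. A value of 0.05 stood for no reads and was set to 0. The table had 27716 rows, and those of the 45 names held more than once were summed to 27671 genes.

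The expected counts were rounded and tested with glmQLFit and glmQLFTest of edgeR 4.0.16 in R 4.3.3. All 9 libraries entered one fit with the group as factor. TMM scaling factors were 0.932 to 0.944 (shControl), 0.961 to 0.971 (shBMAL1) and 1.10 to 1.11 (shARNT), and filterByExpr kept 15551 genes. A gene was called when its Benjamini-Hochberg adjusted p was below 0.1, and 95% intervals of log2FC came from the same fit. CPM were computed on the scaled library sizes, and those per kb with transcript lengths of GENCODE lifted to GRCh37, known for 14010 tested genes. Promoter windows were RefSeq sequences of GRCh38.p14 that matched once in the GRCh37 chromosome.

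The members and gene lists were chosen with earlier results of these data known. Named genes were all 10 members, ARNT, ARNTL and EPAS1, 7 close partners, the 3 called genes of each list with the largest change per comparison (mean of at least 1 CPM), and the 5 nearest profiles of ADM and 3 of each other tested member. Libraries of a group differed by more than independent counts would (chi-square per gene of 2.12 to 2.45), and none were merged. Whether both mates of a read pair were counted separately was not stated. Counting both would also raise this value, so it does not separate sampling noise from differences between replicates. The limit for 0 counts covers counting error of independent reads only. DESeq2 1.42.0 served as an alternative.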

Additional observations from a re-analysis of the deposited data

Results flagged for a closer look

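Between shARNT and shBMAL1, 1 of the 5 tested genes other than ADM was called higher and 3 lower. Of all tested genes 40.1% were higher and 41.1% lower in this comparison. ADM lay above every control library in each shBMAL1 library and below every control library in each shARNT library, with a log2 difference of -1.21 between the depletions. This was not tested, because ADM was chosen for it. By the direct contrast EDN1 differed by a log2FC of -4.16, ECE1 by -1.72, ADM2 by -0.62 and EDN2 by 0.71. This contrast compares no control library, but the control libraries were part of its fit. The difference of EDN2 rests on shARNT replicate 2 (0.46 and not called without it).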

How the results depend on the processing

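Scaling by library size alone, DESeq2, no filter on low counts, only the 6 libraries compared, halved counts, a replicate block, each library left out and, added after seeing the data, EDN1 pooled with LOC101928281 were tried. Over all genes, library size alone shifted the median log2FC by 0.24 in shARNT, 0.05 in shBMAL1 and 0.19 between them. Under it, ADM was -0.58 in shARNT (-0.94 to -0.58 over all alternatives), CALCRL turned to 0.03 between shARNT and shBMAL1, and the genes called higher in shARNT became 5 of the adrenomedullin axis (2 otherwise), 7 of the endothelin axis (4) and 1 of the other vasoactive systems (0). Without a filter, 2 of the last were higher in shARNT and 2 between shARNT and shBMAL1. Leaving out single libraries, the members other than ADM called higher between shARNT and shBMAL1 ranged from 0 to 1 and the other vasoactive genes from 0 to 1. The ECE1 change in shBMAL1, near 0, ranged from -0.01 to 0.04 and turned sign without shControl replicate 2, shControl replicate 3 (both -0.01) or shBMAL1 replicate 1 (0.00). CALCR between shARNT and shBMAL1 became called without shBMAL1 replicate 1 (-0.82, adjusted p = 0.0883) and without shARNT replicate 3 (-0.87, adjusted p = 0.092). The causes were not tested. Of 384 counts recomputed, 377 stayed within 1.5 times of their value, and the counts of members among them included ADM. Of 528 fold changes of single genes 517 were judged the same. That meant an unchanged direction and call. For ADM, which has no call, it meant an unchanged direction and a shift smaller than its spread between libraries.

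Replicates of equal number were not related across groups (correlation of deviations -0.0409 to 0.0752), so the numbers do not pair the samples. With the replicate number as a block, the tested genes other than ADM kept their direction and call in every comparison. Depth limits RAMP1, RAMP2, EDNRA and EDNRB, which had at most 4 counts in a library.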
